A study of Mus musculus with 32 samples.

Results

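The RNA of cultured mouse cortical neurons exposed for 5 d to miR-92a-1-5p was compared to that of neurons exposed for 5 d to miR-124-5p. The comparison holds 8 of the 32 libraries of the series, 4 per oligoribonucleotide, chosen by their deposited labels. All 8 came from neurons of forebrains of late-gestation C57BL/6 embryos of wild-type genotype, freed of meninges and kept in serum-free medium, and both groups received a synthetic, chemically stabilised, single-stranded oligoribonucleotide at the same concentration. The other libraries after 5 d were 4 untreated ones and 4 exposed to Mut.oligo, a mutated let-7b sequence that serves as sequence control, and the same 4 groups were sequenced after 6 h. The label of each library names an experiment batch, and each of the 4 batches that holds a library of miR-92a-1-5p also holds 1 library of miR-124-5p with the same replicate number. These 4 couples are called pairs 1 to 4. The batch of pair 2 also holds an untreated and a Mut.oligo library (each labelled replicate 1), that of pair 3 Mut.oligo replicate 3, that of pair 4 untreated and Mut.oligo replicate 4, and that of pair 1 no other library.

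Both oligoribonucleotides are described as ligands of Toll-like receptor 7 (TLR7), an endosomal receptor for single-stranded RNA that signals through the adaptor Myd88 and the kinase Irak4 to NF-κB and to interferon regulatory factors. Inside a cell, a microRNA loaded into an Argonaute protein pairs through its seed, bases 2 to 8, with matching sites in the 3′ untranslated regions (UTRs) of messenger RNAs and lowers their level. The 5p strand is the one cut from the 5′ arm of the hairpin precursor, and for miR-92a-1 and miR-124 the 3p strand is the better known partner. Cultures of embryonic cortex contain mostly postmitotic neurons beside dividing progenitors, glial precursors and a few vascular and meningeal cells. In such bulk RNA, fewer cells of a type and less RNA per cell cannot be told apart.

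The mature sequence of miR-92a-1-5p is shown because its seed decides which sites were sought in the 3′ UTRs. Sites of miR-124-5p, which share the same contrast, were not sought here. It is given 5′ to 3′ from RefSeq (GRCm38.p6, chr14:115044437-115044459, plus strand, within the host gene Mir17hg), with the seed in capitals.
mmu-miR-92a-1-5p: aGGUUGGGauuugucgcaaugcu

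The 8 libraries held between 38092275 and 58829145 counted reads, and 3 reads correspond to 0.0510 to 0.0788 CPM (counts scaled to the total of a library). A floor of this kind covers counting error alone. The confidence intervals given below come from the fit and also hold the spread between libraries that the batch term leaves. The filter on low counts, 5 counts or more in no fewer than 3 of the 16 libraries after 5 d, left 19333 genes to be tested. Pan-neuronal markers summed to between 11177 and 14613 CPM in each library, markers of astrocytes and radial glia to between 3626 and 5352, of the oligodendrocyte lineage to between 319 and 436, of microglia to between 62.1 and 100.2, and of endothelium to between 41.0 and 48.6 CPM. Each of these lists had its sum above 0 in every library, and 24 of 28 oligodendrocyte lineage, 27 of 28 microglial and 18 of 22 endothelial markers passed the filter on low counts.

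Pair 1 stood apart from the others. Mitochondrially encoded genes took 2.42% of the counts of its miR-92a-1-5p library and 0.996% of its miR-124-5p library, against 1.27% to 1.97% in the 6 libraries of pairs 2 to 4. Gene length was taken as the merged exons of all annotated transcripts, over 13599 genes with a positive mean log2 CPM. Within pair 1, genes of at least 7055 bases lay 0.46 above those shorter than 2918 bases (difference between the median log2 differences of these genes). This difference was -0.06 in pair 2, -0.05 in pair 3, and -0.12 in pair 4. Xist, the RNA of the inactive X chromosome, was at 0.0259 and 0.0426 CPM in the libraries of pair 1 and at 409 CPM or more in all others of the comparison. The Y-linked genes Ddx3y, Eif2s3y, Kdm5d and Uty summed to 164 and 130 CPM in pair 1 (miR-92a-1-5p, then miR-124-5p). In the libraries of pairs 2 to 4 they summed to between 30.3 and 107 CPM. The part of these properties in the differences described here was not tested, and values without pair 1 are given beside the list medians that it moved most.

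To ask where exposure to one ligand differs from exposure to the other, the within-pair differences were tested for each gene. After 5 d, 2 of 19333 genes had a lower level in the miR-92a-1-5p group than in the miR-124-5p group at an adjusted p under 0.05, which is 0.0103% of the genes tested, and 0 genes (0%) were higher (quasi-likelihood test of edgeR, p-values adjusted by Benjamini-Hochberg). Both lie beyond a log2 difference of 0.5. They were Igf2, which encodes the imprinted growth factor insulin-like growth factor 2, and Olig2, a transcription factor that specifies the oligodendrocyte lineage. At an unadjusted p under 0.05, 776 genes (4.01%) were lower and 708 (3.66%) were higher, and with DESeq2 and the batch term 15 genes were lower and 3 higher. With the 8 libraries of the 2 groups alone and the pairs as a block, 0 genes were called (edgeR, smallest adjusted p 0.0813, 668 genes at an unadjusted p under 0.05), Igf2 having an adjusted p of 0.308 and Olig2 one of 0.491. Without the block 0 genes were called in either set of libraries (edgeR, 442 and 344 genes at an unadjusted p under 0.05). The median over all genes tested was a log2 difference of -0.00. Without pair 1, 18 genes were lower and 2 higher, and without pair 2, 3 or 4 none was called in either direction. Without pair 2, 3 or 4, the log2 differences were -0.64, -0.57 and -0.55 for Igf2 and -0.54, -0.52 and -0.52 for Olig2. Their standard errors lay between 0.0796 and 0.0853. The calls thus changed with the pairs fitted. The loss of libraries and the particular pair left out were not told apart.

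Igf2 (ENSMUSG00000048583, protein coding, GRCm38 chr7:142650766-142666816, minus strand) measured 12.5, 24.6, 30.5 and 23.9 CPM in pairs 1 to 4 after miR-92a-1-5p exposure, and 19.1, 32.9, 46.9 and 38.5 CPM after miR-124-5p exposure. The groups overlapped in level, since pair 1 was low in both, but the miR-92a-1-5p library was the lower one in each pair. The differences within pairs were -0.61, -0.42, -0.62 and -0.69 on the log2 scale. Across the pairs Igf2 fell by 0.58 (standard error 0.0670, 95% confidence interval -0.73 to -0.44, adjusted p = 0.0157 from edgeR), from 34.3 ± 11.7 to 22.9 ± 7.53 CPM (SD, n = 4). Without pair 1 the log2 difference was -0.58 (adjusted p = 0.00376). Its exons overlap those of Gm49394 on the same strand in the annotation used here for symbols. Whether this overlap exists in the earlier release used for counting, and touches its reads, was not checked.

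Olig2 (ENSMUSG00000039830, protein coding, GRCm38 chr16:91225457-91228677, plus strand) measured 23.0, 14.2, 12.1 and 13.05 CPM after miR-92a-1-5p and 30.004, 20.9, 18.6 and 20.3 CPM after miR-124-5p exposure in pairs 1 to 4. In pair 1 both libraries lay above those of the other pairs, and outside pair 1 the groups did not overlap. The within-pair log2 differences were -0.38, -0.56, -0.62 and -0.64. Olig2 fell by 0.55 across the pairs (standard error 0.0650, 95% confidence interval -0.69 to -0.41, adjusted p = 0.0157 from edgeR), from 22.4 ± 5.13 to 15.6 ± 5.04 CPM (SD, n = 4), and by 0.61 without pair 1 (adjusted p = 0.00189). In the 2 batches that also hold untreated and Mut.oligo libraries, Olig2 was at 32.1 CPM in untreated and 20.2 in Mut.oligo neurons beside pair 2, and at 27.2 and 21.6 CPM beside pair 4. There, the miR-124-5p library was close to Mut.oligo and the miR-92a-1-5p library below both.

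**Figure D1:**
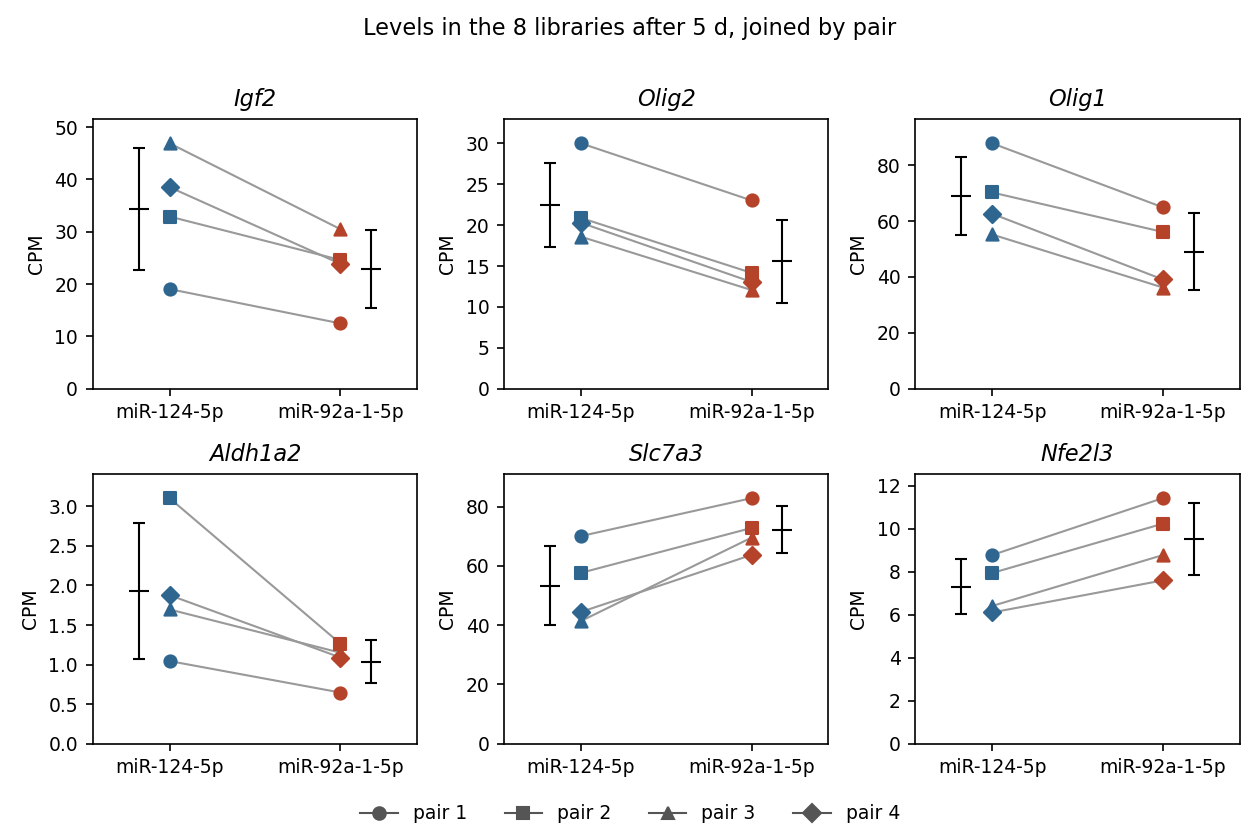
Levels in CPM (linear axis from 0) of 6 genes in the 8 libraries after 5 d, with a line joining the libraries of a pair and bars at the side for the mean and SD of 4 libraries. Igf2, Olig2, Olig1 and Aldh1a2 are lower, and Slc7a3 and Nfe2l3 higher, in the miR-92a-1-5p library of all 4 pairs; Igf2 and Olig2 passed the test.

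Next in order of p below the threshold stood Olig1, the neighbour of Olig2 on the same chromosome and likewise a basic helix-loop-helix factor of oligodendrocyte precursors. It was at 64.9, 56.1, 36.2 and 39.1 CPM after miR-92a-1-5p and 87.8, 70.2, 55.2 and 62.6 CPM after miR-124-5p exposure, and lower in all 4 pairs. Its log2 difference was -0.51 (standard error 0.0758, adjusted p = 0.117 from edgeR) and passed without pair 1 (-0.53, adjusted p = 0.0134).

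The other genes named by rank on the lower side did not pass the test with all 4 pairs either. They were Aldh1a2, the retinoic acid synthesising dehydrogenase of meninges, with -0.87, Tgfbi, a secreted matrix protein induced by TGF-β, with -0.71, Gm6145 with -0.53, Cyp1b1, a cytochrome P450, with -0.51, and Lrig1, a transmembrane brake on growth factor receptors, with -0.29 (adjusted p between 0.118 and 0.124 from edgeR). Aldh1a2 was low, at 0.646, 1.26, 1.15 and 1.09 CPM after miR-92a-1-5p and 1.04, 3.10, 1.70 and 1.88 CPM after miR-124-5p exposure. Gm6145 shares exons with the microRNA gene Mir6390 on the same strand. Without pair 1, each of these 5 genes passed, with adjusted p from 0.00445 for Gm6145 to 0.0479 for Aldh1a2.

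On the higher side, Slc7a3, a transporter of cationic amino acids, came first. It measured 82.9, 72.8, 69.5 and 63.7 CPM after miR-92a-1-5p and 70.0, 57.6, 41.4 and 44.4 CPM after miR-124-5p exposure, higher in each pair with overlapping groups. The log2 difference was 0.46 (standard error 0.0756, adjusted p = 0.118 from edgeR), and 0.53 without pair 1 (adjusted p = 0.00578). It was followed by the transcription factor Nfe2l3 (0.38), the synaptic vesicle protein Synpr (0.25), Arl14ep (0.20), Id3, an inhibitor of basic helix-loop-helix factors that BMP signalling induces (0.43), the glutathione-degrading enzyme Chac1 (0.19), the DNA primase-polymerase Primpol (0.27), and Rnls (0.53). None of these 8 passed, with adjusted p between 0.118 and 0.516 (edgeR). Being higher in all 4 pairs was part of the rule that named these 8 genes, and is shared by 7.39% of all genes tested. For Chac1, Arl14ep, Primpol and Rnls the groups did not overlap, as for 133 of all genes tested in this direction (0.688%). Chac1 was at 54.1 to 60.1 CPM after miR-92a-1-5p and at 46.8 to 52.8 CPM after miR-124-5p exposure.

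**Figure D2:**
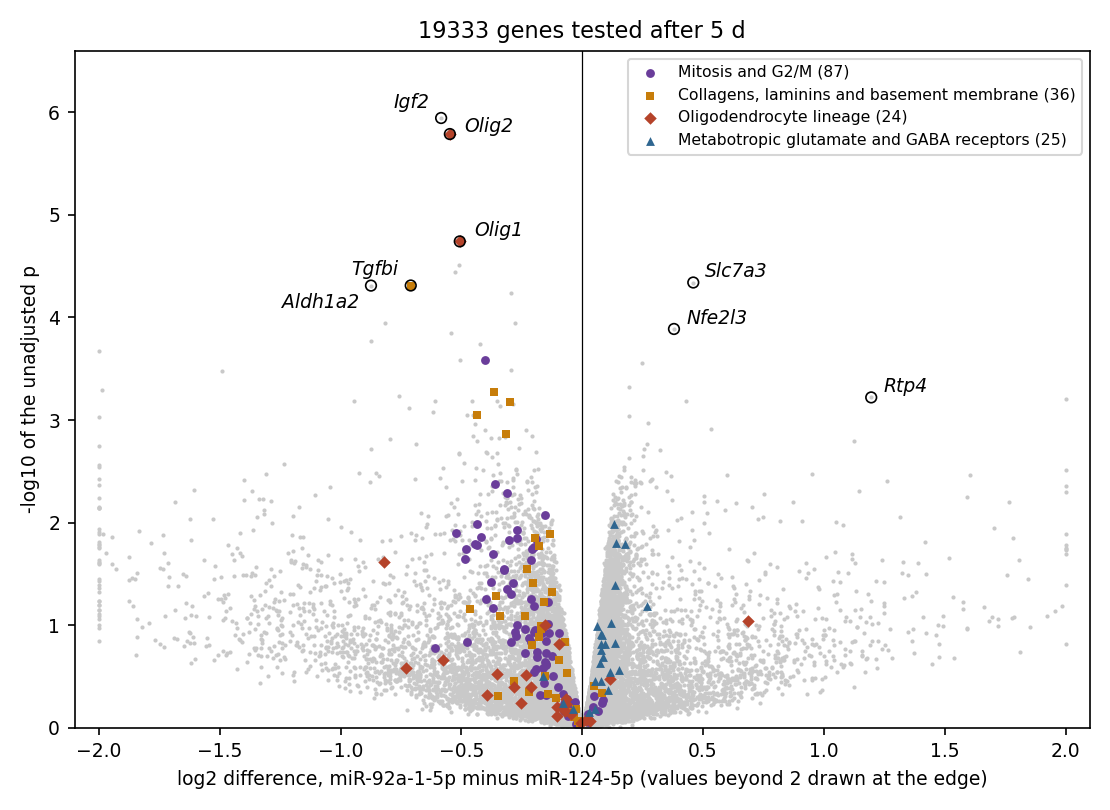
Each of the 19333 points is a gene, placed by its log2 difference (miR-92a-1-5p minus miR-124-5p, 5 d) and by -log10 of its unadjusted p, with 51 genes beyond 2 drawn at the edge. Igf2 and Olig2 are the topmost points; members of the mitosis, matrix and oligodendrocyte lists lie mostly left of 0 and receptors of the metabotropic glutamate and GABA list mostly right of it.

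Gene lists of pathways and cell types were described by how many members lay on each side and by their median, beside the same values over all genes. In that background, 51.3% of genes had a negative log2 difference, 4.01% did so with an unadjusted p under 0.05, and 6.16% were lower in the miR-92a-1-5p library of all 4 pairs. Of all list members, Igf2 and Olig2 alone passed the adjusted threshold, so the following counts are directions and unadjusted p-values.

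Genes of mitosis and G2/M, the phases of chromosome segregation, had a negative log2 difference in 79 of 87 members, with a median of -0.19. For 25 of the 87 the unadjusted p was under 0.05 on the lower side and for none on the higher side. All 4 pairs had a lower miR-92a-1-5p library for 22 members. The medians of the pairs were -0.04, -0.13, -0.25 and -0.28, so that pair 1 lay nearest to 0, and the median was -0.22 without it. Cdca8, a subunit of the chromosomal passenger complex, was lowest in p, at 5.28, 4.06, 4.14 and 3.97 CPM against 8.25, 4.71, 5.56 and 4.93 CPM (log2 difference -0.40, adjusted p = 0.281 from edgeR). Top2a, the DNA topoisomerase of dividing cells, was at 26.1, 15.4, 11.2 and 13.5 CPM against 24.8, 18.9, 16.4 and 22.1 CPM. Its miR-92a-1-5p library was the lower one in pairs 2 to 4 and the higher one in pair 1, and its log2 difference of -0.36 (adjusted p = 0.582) became -0.52 without pair 1 (adjusted p = 0.0172).

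Genes of S phase and DNA replication had a negative difference in 46 of 52 members, with a median of -0.12 and pair medians of -0.24, -0.10, -0.08 and -0.11. Of these, 16 had an unadjusted p under 0.05 and 15 were lower in all pairs. The levels of the 2 groups did not overlap for 5 of the 52 genes, against 0.879% of all genes on the lower side. This held for 1 of the 87 mitosis genes and for 1 of the 28 genes of the G1 list. In the oligodendrocyte lineage and in the astrocyte and radial glia list it held for 0. Cdc45, which unwinds DNA at the replication fork, and the DNA ligase Lig1 had log2 differences of -0.34 and -0.24. Among 28 cyclins, kinases and inhibitors of G1, 20 were negative with a median of -0.05. There, Ccnd1, the cyclin that drives the exit from G1, was at 20.3 to 29.5 CPM after miR-92a-1-5p and at 25.9 to 31.1 CPM after miR-124-5p exposure (log2 difference -0.23), and its partner kinase Cdk6 had a difference of -0.38, while the phosphatase gene Cdc25a was on the other side with 0.16 (adjusted p between 0.582 and 0.603, edgeR).

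Of 24 oligodendrocyte lineage markers tested, 20 had a negative log2 difference, 6 in all pairs, with a median of -0.13. The median was -0.21 without pair 1 and -0.05 without pair 4. Besides Olig2 and Olig1, the myelin tight junction gene Cldn11 had a difference of -0.82 at 0.129 to 0.707 CPM (adjusted p = 0.595 from edgeR). The receptor Pdgfra and the proteoglycan Cspg4, which mark oligodendrocyte precursors, did not share the direction in all pairs. Pdgfra was at 30.8, 7.63, 6.90 and 8.31 CPM after miR-92a-1-5p and 21.8, 9.38, 7.82 and 10.5 CPM after miR-124-5p exposure, higher in pair 1 and lower in the other 3, with a log2 difference of -0.05 (95% confidence interval -0.33 to 0.23). Sox10, a factor of the same lineage, was likewise highest in both libraries of pair 1, at 3.83 and 3.09 CPM against 0.772 to 1.39 CPM elsewhere.

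Of 28 markers of astrocytes and radial glia, 20 were negative with a median of -0.06 (-0.03 without pair 4), and 7 were lower in all pairs. Nes, the intermediate filament of neural progenitors, was at 50.9, 47.1, 40.7 and 42.3 CPM against 68.0, 51.8, 45.4 and 58.4 CPM (log2 difference -0.30, adjusted p = 0.305 from edgeR).

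Markers of fibroblasts and meninges, among them Igf2 and Aldh1a2, were negative in 21 of 27 members with a median of -0.21, and 12 of them had an unadjusted p under 0.05. The pair medians were -0.40, -0.20, -0.09 and -0.05, the farthest from 0 being that of pair 1, and the median without pair 1 was -0.14. The GABA transporter Slc6a13, which meningeal cells express, was at 0.440, 1.29, 0.794 and 0.386 CPM against 1.11, 2.07, 1.39 and 0.950 CPM (log2 difference -0.94, adjusted p = 0.389 from edgeR). The summed level of the list was 227 to 332 CPM after miR-92a-1-5p and 297 to 390 CPM after miR-124-5p exposure.

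Collagens, laminins and other genes of the basement membrane were negative in 34 of 36 members, with a median of -0.17, 11 at an unadjusted p under 0.05 and 11 in all 4 pairs. The pair medians were -0.15, -0.25, -0.06 and -0.23. Lama1, the laminin α1 chain, was at 10.2 to 11.9 CPM after miR-92a-1-5p and at 12.4 to 15.1 CPM after miR-124-5p exposure, without overlap (log2 difference -0.30, adjusted p = 0.389). Col4a6, a chain of type IV collagen, had -0.36 and a nearly equal difference in each pair, between -0.32 and -0.42 (adjusted p = 0.389, both from edgeR). Tgfbi belongs to this list as well.

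Vascular markers were mixed. Of 18 endothelial genes, 13 were negative with a median of -0.10 (-0.19 without pair 4), and the VEGF receptor Kdr was at 1.84 to 2.84 CPM after miR-92a-1-5p and at 2.90 to 3.91 CPM after miR-124-5p exposure, without overlap (log2 difference -0.45, adjusted p = 0.425 from edgeR). Of 18 pericyte and smooth muscle genes, 14 were negative with a median of -0.12 (-0.20 without pair 4). The pericyte genes Pdgfrb and Rgs5 lay on the other side, with 0.29 and 0.59 and a higher miR-92a-1-5p library in each pair (adjusted p = 0.582 for both). Targets of YAP and SRF, factors that respond to the actin cytoskeleton, were negative in 22 of 32 members with a median of -0.06.

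**Figure D3:**
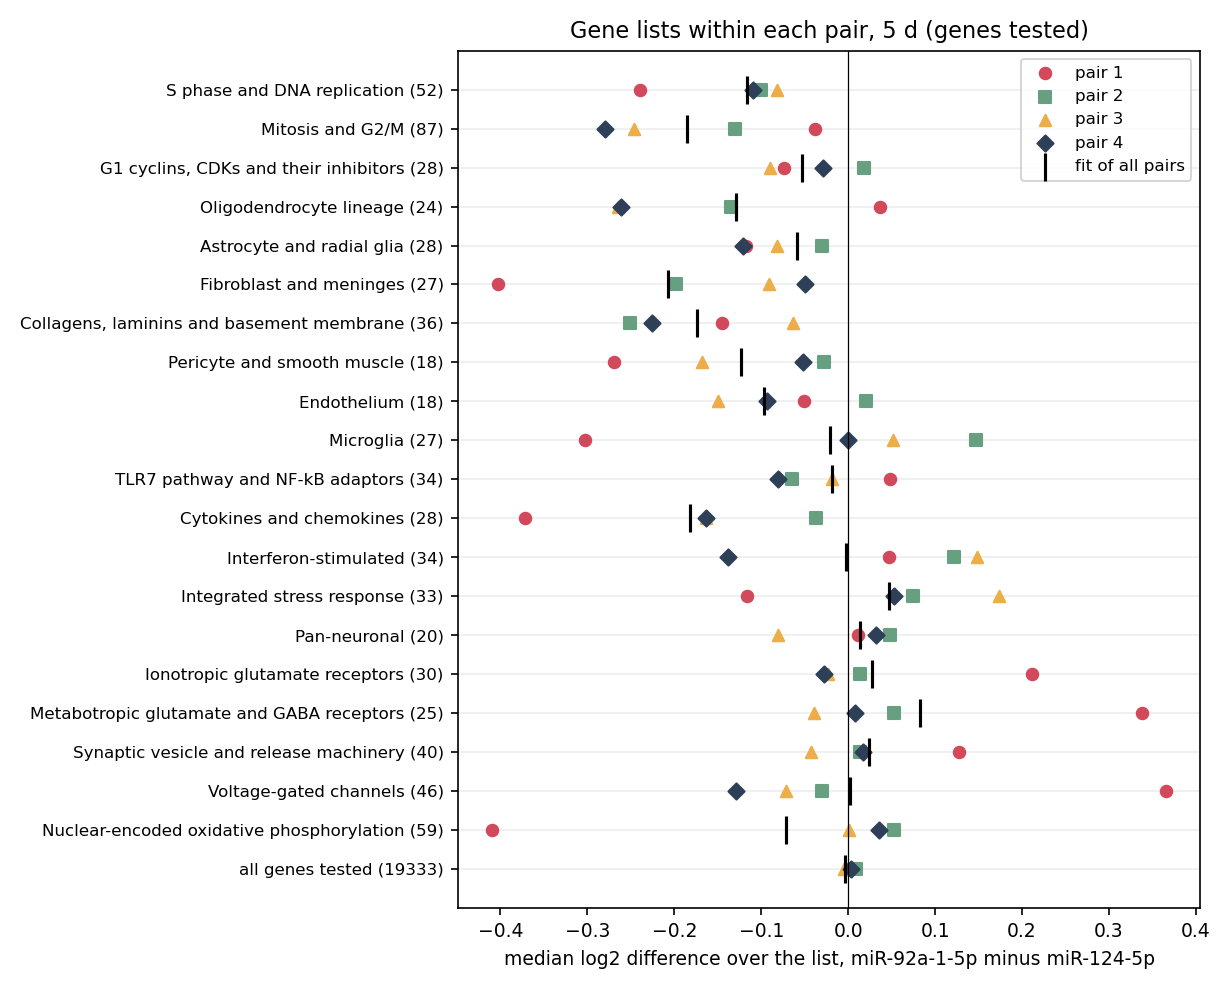
Median log2 difference (miR-92a-1-5p minus miR-124-5p, 5 d) over the tested members of 20 gene lists and over all genes, with a symbol for each pair and a bar for the fit of all pairs. The medians of all 4 pairs lie below 0 for S phase, mitosis, astrocyte, fibroblast, matrix, pericyte and cytokine lists, and pair 1 is the farthest from 0 for several others.

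The pathway of the receptor itself showed no call. Tlr7 was at 1.29, 0.788, 1.36 and 1.52 CPM after miR-92a-1-5p and at 1.13, 0.793, 0.966 and 1.29 CPM after miR-124-5p exposure (log2 difference 0.25, 95% confidence interval -0.20 to 0.71, adjusted p = 0.787 from edgeR). Myd88 had a difference of -0.16 (interval -0.40 to 0.07) and Irak4 one of 0.12 (interval -0.28 to 0.52). Of 34 genes of the TLR7 pathway and NF-κB adaptors, 20 were negative with a median of -0.02 (-0.05 without pair 1). The NF-κB feedback inhibitors Nfkbia and Nfkbie and the subunit Nfkb2 came first in p, each lower in all 4 pairs, with -0.17, -0.42 and -0.22 (adjusted p between 0.582 and 0.623, edgeR).

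Of 36 cytokines and chemokines, 28 passed the filter on low counts and 20 of these were negative, 11 in all 4 pairs, with a median of -0.18. The interferon- and NF-κB-induced chemokine Cxcl10 was at 3.34, 4.27, 3.57 and 3.29 CPM against 4.52, 5.16, 4.05 and 5.41 CPM (log2 difference -0.40, adjusted p = 0.582 from edgeR). The chemokines Ccl7, which attracts monocytes, and Cxcl1, which attracts neutrophils, had differences of -0.64 and -0.52 and were lower in each pair, at no more than 3.82 CPM in any library. The median moved with the genes and pairs included, to -0.07 without pair 1, to -0.34 without pair 2, and to -0.04 over the genes with at least 10 counts in every library.

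Interferon-stimulated genes were divided, with 18 of 34 negative and a median of -0.00 (0.07 without pair 1, 0.09 without pair 4). The 3 smallest p-values, however, all belonged to genes higher after miR-92a-1-5p exposure in every pair. Rtp4, a chaperone of receptors, was at 0.698, 0.746, 0.293 and 0.295 CPM against 0.277, 0.320, 0.0942 and 0.181 CPM (log2 difference 1.20, standard error 0.263, adjusted p = 0.389 from edgeR). Oasl2 (0.75) and the ubiquitin-like protein Isg15 (0.90) followed, with adjusted p of 0.582 and 0.603. The counts behind them were few, 4 to 36 in a library for Rtp4, 15 to 61 for Oasl2, and 6 to 22 for Isg15, and Rtp4 shares exons with Gm45338. Microglial genes (15 of 27 negative, median -0.02, and 0.06 without pair 1) and those of complement and phagocyte oxidase (9 of 19 negative, median 0.00, and 0.07 without pair 1) lay around the background in the fit of all pairs.

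The fit of all 4 pairs gave neuronal lists medians near 0. The median was 0.01 over 20 pan-neuronal genes, 0.03 over 34 of glutamatergic and GABAergic identity, 0.03 over 30 ionotropic glutamate receptor genes, 0.02 over 40 of the synaptic vesicle, 0.02 over 32 of postsynaptic scaffold and adhesion, and 0.00 over 46 voltage-gated channels. These medians hold pair 1 against the others. The pair medians of the channels were 0.37, -0.03, -0.07 and -0.13, and pair 1 likewise lay at 0.24 for the postsynaptic list. Without pair 1, the medians were -0.01 for pan-neuronal genes, -0.00 for neuronal identity, -0.03 for ionotropic receptors, -0.02 for the vesicle, -0.03 for the postsynaptic list, and -0.07 for channels. Among pan-neuronal genes the neurofilament chains went apart, Nefl with 0.13 and Nefh with -0.25 and each in one direction in all pairs (adjusted p = 0.582 for both, edgeR). The farthest of these receptor lists was that of metabotropic glutamate, GABA and glycine receptors, where 22 of 25 genes were positive with a median of 0.08. The pair medians of this list were 0.34, 0.05, -0.04 and 0.01, and without pair 1 its median was 0.02. Of the 17 neurotrophins and receptors, 13 were positive with a median of 0.12, which was 0.05 without pair 2, 0.06 without pair 3, and 0.05 over the genes with at least 10 counts in every library. Bdnf, the brain-derived neurotrophic factor, had a difference of 0.17 at 6.12 to 12.004 CPM (adjusted p = 0.595).

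Genes of the integrated stress response, which halts translation and induces amino acid transport and synthesis, were positive in 24 of 33 members with a median of 0.05. Slc7a3 and Chac1 belong to it, and 6 of the 33 had an unadjusted p under 0.05 on the higher side, against 3.66% of all genes, and 3 of the 33 on the lower side, against 4.01%. In pair 1, 22 of the 33 were lower with a median of -0.12, the other pairs had medians of 0.07, 0.17 and 0.05, and the median without pair 1 was 0.09. Nupr1, another stress-induced gene, was on the lower side with -0.40. Immediate early and activity-regulated genes were even, with 24 of 49 negative and a median of 0.00. There, the antiproliferative gene Btg2 was lower in each pair, at 23.5, 20.9, 16.6 and 19.7 CPM against 26.9, 25.03, 20.004 and 25.9 CPM (log2 difference -0.28, adjusted p = 0.200 from edgeR).

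The remaining lists had medians of -0.03 for the p53 pathway and apoptosis, 0.03 for heat shock, 0.04 for cholesterol biosynthesis, 0.06 for BMP and TGF-β signalling, 0.00 for hypoxia and glycolysis, 0.01 for the growth cytoskeleton, 0.02 for axon guidance, and -0.00 for microRNA processing. Without pair 1, the medians were -0.01 for BMP and TGF-β signalling, 0.05 for hypoxia and glycolysis, 0.07 for heat shock, -0.07 for axon guidance, and -0.09 for microRNA processing, where pair 1 itself lay at 0.29. The medians of mitochondrial genes rested on pair 1 as well. The 8 mitochondrially encoded genes had a median of 0.42, which was 0.01 without pair 1 and 1.56 within it. The 59 nuclear genes of oxidative phosphorylation had a median of -0.07, which was 0.04 without pair 1 and -0.41 within it.

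The study lists 26 genes as deregulated after 5 d by more than one of the oligoribonucleotides. Each member was called after miR-92a-1-5p in these same libraries, and not each after miR-124-5p, so that the choice of the list itself favours differences in the direction of its calls (lower for all but Spp1) and the following values are a description. Of the 26, 24 had a negative log2 difference between the 2 ligands, 11 in all 4 pairs, with a median of -0.23. The pair medians were -0.11, -0.18, -0.28 and -0.34, and the median was -0.28 without pair 1. Olig2 alone passed. The exceptions to the negative sign were Kif22, a chromosome-binding kinesin, with 0.08, and the growth factor gene Bmp6, with 0.02. Spp1, which the study lists as higher, was among the 24 negative ones with -0.10, against the direction of its call, and was lower in 2 pairs and higher in 2. Melk, a kinase of dividing cells, had a difference of -0.44, Uhrf1, which maintains DNA methylation, one of -0.35, Pbk one of -0.31, Dlgap5, a spindle protein, one of -0.29, and the cyclin gene Ccna2 one of -0.27.

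How far each group lay from the untreated neurons is given side by side, since these comparisons share the untreated libraries and are no independent results. All these distances, those of the lists included, come from the fit with the batch term. The batch of pair 1 holds no untreated or Mut.oligo library, so its levels enter only through the difference within that pair. Untreated replicate 3 is alone in its batch and adds nothing to them. Against untreated, 93 genes (0.481%) were lower and 6 (0.031%) higher in the miR-92a-1-5p group. In the miR-124-5p group 5 (0.0259%) were lower and 0 (0%) higher, and in the Mut.oligo group 10 (0.0517%) were lower and 0 higher, each at an adjusted p under 0.05 (edgeR, with the batch term). Of the 26 genes, 23, 5 and 10 were among those lower, respectively, counts that the choice of the list on these samples fixes in part. In the order miR-92a-1-5p, then miR-124-5p, then Mut.oligo, the log2 distance of Olig2 from untreated was -1.07, -0.53 and -0.45, and that of Top2a -0.93, -0.57 and -0.50. Kdr lay at -1.46, -1.01 and -1.37, so that Mut.oligo stood nearer to miR-92a-1-5p. Pdgfra lay at -1.58, -1.53 and -1.47, nearly the same distance in the 3 groups. In pair 1, whose level these distances leave out, Pdgfra was at 30.8 CPM after miR-92a-1-5p and 21.8 CPM after miR-124-5p exposure. The untreated libraries, all of other batches, held 24.8 to 36.4 CPM. For Igf2 the values were -0.61, -0.02 and -0.37, and for Slc7a3 0.48, 0.02 and 0.19.

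Over the mitosis list, the median distance from untreated was -0.64, -0.43 and -0.36 in the same order. Over collagens and laminins it was -0.20, -0.03 and -0.08, over the oligodendrocyte lineage -0.37, -0.28 and -0.34, over fibroblasts and meninges -0.27, -0.12 and -0.20, and over cytokines -0.19, -0.01 and -0.02. For Rtp4, the distances were 0.29, -0.90 and -0.09, and for Id3 -0.02, -0.44 and -0.64, so that for these 2 genes the miR-92a-1-5p group lay nearest or on the other side of untreated.

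**Figure D4:**
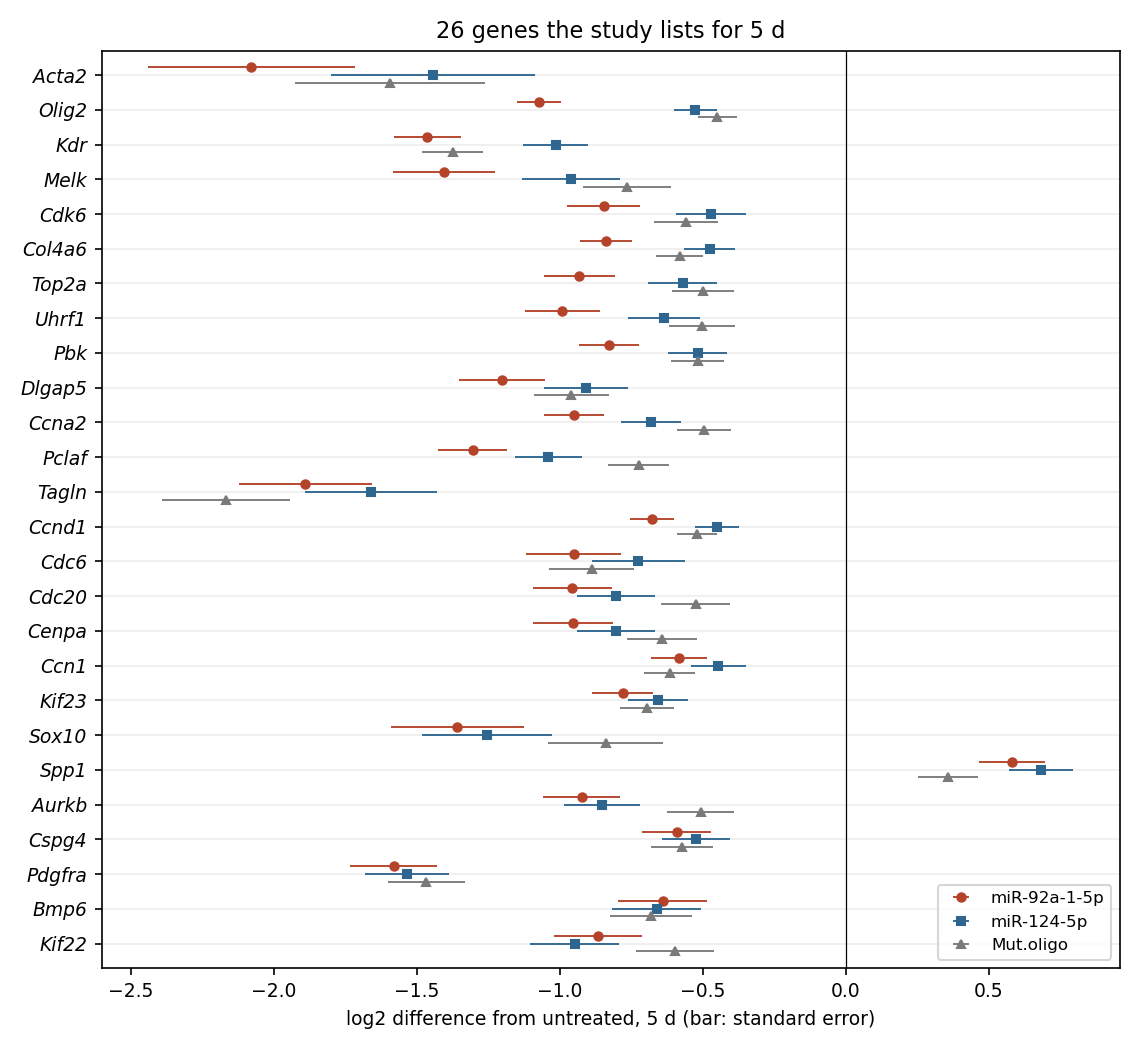
Log2 difference from untreated neurons after 5 d for the 26 genes listed by the study as shared between oligoribonucleotides, with the standard error as a bar and one symbol per oligoribonucleotide, ordered by the difference between both miRNAs. The miR-92a-1-5p symbol lies left of the miR-124-5p symbol for 24 genes, and the 3 groups share the same untreated libraries.

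The same 2 groups after 6 h share a batch in only 2 batches. There, 0 of 18755 genes differed in either direction (edgeR, smallest adjusted p 0.291, 982 genes at an unadjusted p under 0.05). The difference after 5 d was not distinguished from that after 6 h for any of 20425 genes (edgeR, smallest adjusted p 0.641, 1078 at an unadjusted p under 0.05). Olig2 had a log2 difference of 0.14 after 6 h (standard error 0.173) and Igf2 one of -0.15 (standard error 0.138). The list medians after 6 h were 0.14 for mitosis, 0.06 for the oligodendrocyte lineage, 0.00 for collagens and laminins, -0.04 for fibroblasts and meninges, and 0.43 for cytokines and chemokines. The receptor gene Grm2 and Bdnf, positive after 5 d, had -0.42 and -0.77 after 6 h.

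Sites that match the seed of miR-92a-1-5p, CCCAACC in the 3′ UTR, were present in 1586 of 15535 genes with a tested 3′ UTR (10.2%). These genes had a median log2 difference of 0.01, those without a site 0.00, and the 218 genes with 2 or more sites 0.01. Their median 3′ UTR lengths were 2233.5, 1066 and 2829 bases in the same order. Long genes lay 0.46 above short ones within pair 1, and the medians were not matched for length. The part of length in them was not tested, so they do not show whether sites had an effect. A match is a description of letters and not of a working site, and sites of the other ligand were not part of the search. Among the genes named here, Igf2 holds 1 match in a 3′ UTR of 3050 bases, and Olig2, Olig1, Tgfbi, Aldh1a2 and Slc7a3 hold none. Of the host genes from which the endogenous microRNAs are cut, Mir17hg was at 0.207 to 0.635 CPM, with a log2 difference of 0.03 (95% confidence interval -0.52 to 0.58), Mir124a-1hg had one of -0.06, and Mir124-2hg one of 0.16 (adjusted p between 0.606 and 0.986, edgeR). These genes overlap the microRNA genes they host.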

How the data were processed

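RNA-seq libraries of cultured cortical neurons were made from poly(A) RNA with a stranded kit. The authors mapped the reads to GRCm38 with STAR and assigned them to exons by strand with featureCounts (Subread), and the deposited values are raw counts of 49671 genes without normalization, with replicates kept apart. Symbols, coordinates and exon overlaps came from the GENCODE annotation of the same build, which is a later release than that of the authors (49412 identifiers with a symbol, 259 without, which held at most 0.0335% of the counts). All libraries were mapped to a group by their labels, and none of the columns was left over. Same-group libraries differed by more than sampling noise (chi-square per degree of freedom from 7.87 to 100.7).

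Genes that reached 5 counts in 3 or more of the 16 libraries after 5 d entered the fit of edgeR 4.0.16 under R 4.3.3 (TMM, quasi-likelihood test, experiment batch with 6 levels plus group with 4 levels, 7 residual degrees of freedom) and were called at a Benjamini-Hochberg adjusted p under 0.05. The study used DESeq2 with default parameters, and its model formula is not given in the sources used here. DESeq2 1.42.0 without and with a batch term, other size factors and filters, and leaving out each pair were alternatives. The labels state that same-numbered libraries share a batch, and their deviations from the group means correlated across 13622 genes with r of 0.443, 0.53, 0.51 and 0.51. Differently numbered libraries had r from -0.537 to 0.437. The highest of these joined replicate 4 of miR-92a-1-5p to replicate 3 of miR-124-5p. Deviations from a group mean lower the unmatched values by construction, so the pairing rests on the labels. Within-pair differences are differences of log2 CPM with a prior count of 2 and were not tested by themselves. The scripts were tested on simulated data.

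The groups compared and the 37 gene lists were chosen with earlier results of these data known, so no list was tested as a set. Named genes are the 8 with the smallest p in each direction (mean of at least 1 CPM in a group, same sign in all 4 pairs), the 26 genes the study lists for 5 d, up to 3 genes with the smallest p of every other list, Tlr7, Myd88, Irak4 and the host genes of the microRNAs, of which a few are not reported here. Seed sites were sought in the longest annotated 3′ UTR of each gene, on the transcribed strand. Gene sets, RT-qPCR and imaging of the study were not analysed here.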

Additional observations from a re-analysis of the deposited data

Results flagged for a closer look

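Among 82 groups of 4 libraries (41 genes in each of the 2 groups), 8 values stood farther from the other 3 libraries than the critical value of Dixon's test at 95% allows, of which chance flags about 1 in 20 groups. All 8 belonged to replicate 1, the libraries of pair 1, in genes that the study lists for 5 d. That list supplied 26 of the 41 genes, and the others had been named for small p and the same sign in all 4 pairs. After miR-92a-1-5p exposure, Pdgfra was at 30.77 CPM in that library against 6.90 to 8.31 CPM in the other 3, Sox10 at 3.827 against 0.772 to 1.14 CPM, Cenpa, the histone variant of the centromere, at 4.008 against 1.76 to 1.93 CPM, and the kinesin Kif23 at 3.801 against 2.32 to 2.57 CPM. Spp1, the secreted glycoprotein osteopontin, was at 2.819 CPM there and at 11.98 to 13.11 CPM in the other 3. After miR-124-5p exposure, Sox10 was at 3.09 against 1.06 to 1.39 CPM, Acta2, the actin of smooth muscle, at 2.28 against 0.520 to 0.776 CPM, and Kif22 at 3.921 against 1.84 to 2.17 CPM. The batch of pair 1 holds no untreated or Mut.oligo library, so the level of these genes in its untreated cultures cannot be given.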

How the results depend on the processing

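The direction of Igf2 and Olig2 held under each alternative, but their call did not. Without the replicate block (group only) 0 genes were lower, as with only the 8 libraries of the 2 groups with the replicate block (0, with a smallest adjusted p of 0.0813) or without it (0, chosen after seeing the data), and as with DESeq2 without the block (0). Igf2 then had adjusted p of 1.00, 0.308, 1.00 and 1.00, and Olig2 1.00, 0.491, 1.00 and 1.00. DESeq2 with the batch term called 15 lower and 3 higher, and no filter on low counts gave 10 lower and 1 higher, each including the 2 genes. Leaving out one pair gave 0 to 18 lower and 0 to 2 higher genes. RLE size factors, at least 10 counts in every library, and a minimum log2 difference of 0.5 left 2 lower and 0 higher. The comparison of 5 d with 6 h stayed at 0 genes without the block.

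Small differences turned. Pdgfra became 0.106, 0.108 and 0.120 without the block (edgeR with 16 and 8 libraries, DESeq2) and ranged from -0.273 to 0.0413 when replicates were left out (0.0277 without replicate 2). Over the same omissions the log2 difference ranged from -0.0325 to 0.0777 for Bmp6 and from -0.0575 to 0.274 for Kif22, and reached 0.0194 for Spp1 without replicate 2 and 0.0489 for Sox10 without replicate 3, their lowest values being -0.188 (Spp1) and -0.339 (Sox10). The endothelial median ranged from -0.186 to -0.135 and the cytokine median from -0.336 to -0.0721 when replicates were left out, the latter being -0.0362 with at least 10 counts in every library. The cause was not tested.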

Other observations

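Long non-coding RNAs that stay in the nucleus were chosen after earlier values had been seen and are given as values only. Xist was at 409, 889 and 580 CPM after miR-92a-1-5p and at 650, 1426 and 960 CPM after miR-124-5p exposure in pairs 2 to 4, lower by 0.67, 0.68 and 0.73 on the log2 scale (adjusted p = 0.582 from edgeR over all pairs). In the same batches it was at 350 CPM in untreated and 649 CPM in Mut.oligo neurons beside pair 2, at 820 CPM in Mut.oligo beside pair 3, and at 897 and 585 CPM in untreated and Mut.oligo beside pair 4, so that the order of the groups differed between batches. The Y-linked genes of the same libraries summed to 103, 30.3 and 85.2 CPM after miR-92a-1-5p and 107, 33.4 and 85.4 CPM after miR-124-5p exposure, close to each other within each pair.

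Kcnq1ot1, an imprinted antisense transcript, differed by -1.60, -1.51 and -1.91 within pairs 2 to 4 and by 0.42 within pair 1 (adjusted p = 0.651 from edgeR). It was at 4.96 CPM in untreated and 21.3 CPM in Mut.oligo neurons beside pair 2, and at 21.0 and 4.13 CPM beside pair 4. Untreated and Mut.oligo thus changed order between these batches. Malat1 differed by -0.86, -1.32 and -1.64 within pairs 2 to 4 and by 0.56 within pair 1, and Meg3 by -0.96, -0.20, -0.80 and 0.21 in the same order (adjusted p = 0.684 and 0.690 from edgeR). For Malat1, untreated and Mut.oligo changed order as well, with 91.2 and 288 CPM beside pair 2 and 342 and 135 CPM beside pair 4. Rian and Mirg, which are neighbours of Meg3 in the same imprinted cluster, had differences of 0.08 and 0.19 across the pairs. The counts of these transcripts were high enough for the spread between pairs, rather than counting error, to set the precision, and none passed the test.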
